A study of Mus musculus with 6 samples.

Results

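The promoter flanks are the stretches that begin 1001 bp and end 5000 bp from a transcription start site (TSS), and their DNA methylation was read in GS cells that had been stored frozen in space or on Earth. GS cells are cultured mouse spermatogonia, a population that holds spermatogonial stem cells, and they are grown on feeder fibroblasts with GDNF and FGF2. Genomic DNA of 3 Space GS cell samples and 3 Ground GS cell samples was analyzed by RRBS, which reads CpG-rich restriction fragments after bisulfite conversion. Both groups had the genotype DBA/Tg14(act-EGFP-OsbY01), were frozen for 6 months, in the ISS for Space GS cells and on Earth for Ground GS cells, and were thawed, cultured, and passaged before DNA was taken, and neither group was kept without freezing. The labels do not say whether the 3 samples of a group came from separate cultures, so that p-values measure the spread between these samples, which may be technical.

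A flank member is a CpG site on an autosome with at least 10 reads in all 6 samples, whose closest TSS in the deposited table is 1001 to 5000 bp away. It was called upstream or downstream from its position, the position of that TSS, and the strand of the gene. The table holds 1 TSS per gene, so that other starts of a gene are not seen, and a member may lie near one. In all, 81306 sites of 9436 genes were members, which is 11.9% of the 681804 sites with this coverage, and 28.6% of the 284017 autosomal flank sites of any coverage. The upstream flank held 23727 sites (29.2%) of 4329 genes, and the downstream flank held 57579 sites (70.8%) of 6329 genes. Sites on both sides were covered in 1222 genes, whereas 3107 genes had upstream sites only and 5107 had downstream sites only. The upstream and downstream members are therefore largely those of different genes. Fewer upstream than downstream sites reached the coverage minimum (23.3% against 31.6%). The median coverage of flank sites was 27 to 32 reads per sample, and at 10 reads a single read moves the level of a site by 10 percentage points. Coverage summed over the sites was 2415052 to 2841508 per sample. A read is counted there once at every site it covers, so that the number of reads was smaller.

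In mammals, methyl groups are placed on the cytosine of CpG dinucleotides, and most CpGs of the genome carry them. CpG islands, which are dense clusters of CpGs at many gene starts, are usually free of DNA methylation, and the flanks are where an unmethylated island gives way to the methylated genome. Male germline cells have a methylome of their own, in which promoters of germline genes that somatic cells methylate are free of the mark. As a check of the labelled cell type, 15 of 22 such germline genes had at least 3 covered sites within 1 kb of the TSS. All 15 were under 10%, with a median of 2.14% and a maximum of 7.57% in *Tex19.1*. *Dazl* (2.14%, 49 sites) and *Ddx4* (2.46%, 16 sites), which encode RNA regulators of germ cells, were among them. Most gene starts were this low, so that the count does not set these genes apart. Of genes with upstream flank sites, 2183 had a start under 10%, 97 at 10% to 90%, and 59 over 90%. Of those with downstream flank sites, 3651, 134, and 65 did.

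The starts of *Aqp2*, *Krt18*, and *Rbm19* are printed because these genes had flanks at opposite levels, covered sites within 1 kb, and a RefSeq promoter, and they were chosen after their values were seen. The sequences are RefSeq promoters of GRCm38.p6, all on the plus strand and on the sense strand 5′ to 3′, from 250 bases before to 50 bases after the start, with CG in capitals. The deposited coordinates are mm39, so that these windows name the gene start only, and flank sequence was not read. *Aqp2* encodes the water channel of the renal collecting duct (chr15:99578806-99579105), *Krt18* a keratin of simple epithelia (chr15:102027966-102028265), and *Rbm19* an RNA-binding protein of ribosome assembly (chr5:120116263-120116562).
Aqp2: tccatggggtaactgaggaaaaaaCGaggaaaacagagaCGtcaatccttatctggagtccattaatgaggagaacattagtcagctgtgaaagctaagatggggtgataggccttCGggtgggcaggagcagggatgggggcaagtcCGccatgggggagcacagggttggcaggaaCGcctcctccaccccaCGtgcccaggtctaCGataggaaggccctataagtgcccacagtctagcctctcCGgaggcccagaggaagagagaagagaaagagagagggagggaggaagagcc
Krt18: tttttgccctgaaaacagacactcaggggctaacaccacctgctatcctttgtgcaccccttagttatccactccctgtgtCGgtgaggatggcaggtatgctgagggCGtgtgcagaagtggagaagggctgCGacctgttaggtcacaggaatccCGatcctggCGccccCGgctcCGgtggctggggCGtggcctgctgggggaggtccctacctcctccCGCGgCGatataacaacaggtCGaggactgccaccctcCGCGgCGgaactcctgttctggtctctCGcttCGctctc
Rbm19: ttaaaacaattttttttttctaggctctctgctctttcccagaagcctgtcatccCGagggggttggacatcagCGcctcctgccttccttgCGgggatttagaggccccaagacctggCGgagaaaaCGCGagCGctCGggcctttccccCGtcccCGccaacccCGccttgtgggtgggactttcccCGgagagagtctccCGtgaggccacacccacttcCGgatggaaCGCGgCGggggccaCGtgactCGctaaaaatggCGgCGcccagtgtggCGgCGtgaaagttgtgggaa

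The motif CG, which reads the same on both strands, occurs 8 times in the *Aqp2* window, 17 times in *Krt18*, and 23 times in *Rbm19*. The median of 32851 RefSeq promoters of this length was 7, and 48.6%, 31.4%, and 21.5% of them held at least as many CGs as *Aqp2*, *Krt18*, and *Rbm19*, respectively.

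DNA methylation rose with distance from the TSS on both sides, and the downstream flank stayed lower than the upstream flank. In the order of replicates 1, 2, and 3, the mean level of the upstream flank was 30.03%, 29.7%, and 29.6% for Space and 30.2%, 29.5%, and 29.4% for Ground. The downstream flank gave 17.3%, 16.9%, and 16.8% for Space and 17.3%, 16.8%, and 16.7% for Ground. No downstream value came near an upstream value, and in both flanks the Space and Ground samples overlapped. These levels lie between those of the surrounding zones of the same samples. Sites within 1 kb of the TSS averaged 2.88% upstream and 2.30% downstream, and sites beyond 5 kb averaged 54.6% and 51.1%.

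The downstream flank was 12.8 percentage points lower than the upstream flank (SD 0.0681, n = 6), and it was lower in 6 of 6 samples (p = 0.03125 in a two-sided exact sign-flip permutation test, which cannot go lower with 6 samples). This test covers the spread between samples that were read at the same sites, not the choice of sites or genes. The sides differed by 0.577 percentage points within 1 kb and by 3.47 percentage points beyond 5 kb, also with the downstream side lower in 6 of 6 samples. More of the downstream sites lie near the TSS, where levels are low. When the 8 distance steps of 500 bp were weighted equally, the downstream flank was 8.95 percentage points lower (SD 0.0785, n = 6).

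Step by step, the downstream level climbed from 6.30% at 1001 to 1500 bp to 12.8%, 19.7%, 25.3%, 27.4%, and 32.1% in the next steps, and was 29.9% and 31.1% in the last 2. The upstream level began at 18.4% in the first step, reached 24.9%, 30.2%, 32.1%, and 35.6%, stayed at 34.8% and 35.7% in the sixth and seventh step, and was 44.5% at 4501 to 5000 bp. The SD over the 6 samples was 0.203 to 0.415 percentage points in these 16 steps. Neighboring steps 5 to 7 of the upstream flank, and steps 6 to 8 of the downstream flank, thus differed by at most a few percentage points, with no steady rise.

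**Figure D1:**
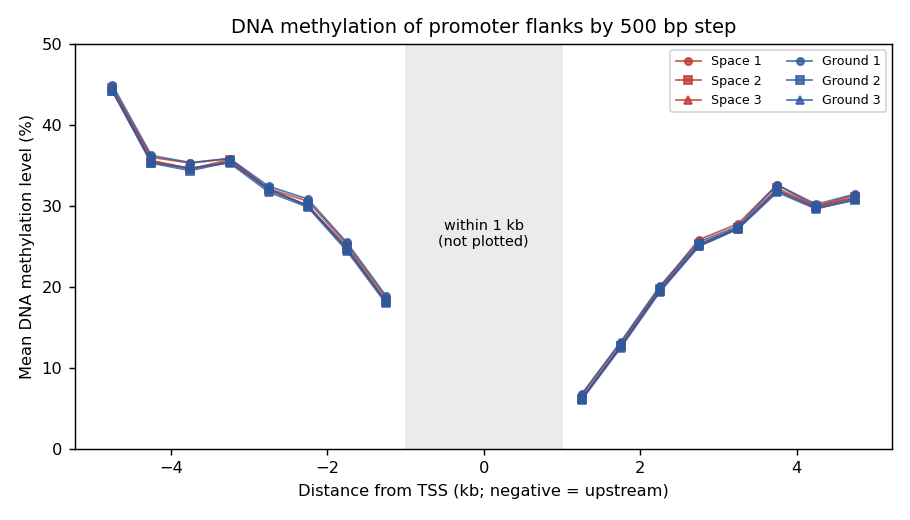
Mean DNA methylation level (y axis, percent) of the flank sites in each 500 bp step against the distance from the TSS (x axis, kb, upstream negative), with 1 line per sample. The lines of the 6 samples nearly coincide, and the first upstream step (18.4%) lies well above the first downstream step (6.30%).

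At matched distance, the downstream level was lower in all 8 steps and in 6 of 6 samples in each (exact sign-flip permutation test, two-sided, p = 0.03125 after Benjamini-Hochberg adjustment over 8 steps). The gap was not uniform. It was 12.05 and 12.1 percentage points in the first 2 steps, 10.5 in the third, 6.74 in the fourth, and 8.24 in the fifth, fell to 2.65 in the sixth, and was 5.79 and 13.4 in the last 2. The sixth step, 3501 to 4000 bp, was also the one in which the sides did not differ beyond the spread of the samples once each gene was given the same weight. The gene-weighted means were 59.7% upstream and 59.6% downstream, and the downstream side was lower in 3 of 6 samples. In the other 7 steps it was lower in 6 of 6 samples under this weight. Gene-weighted levels were far higher than site-weighted levels, at 39.8% upstream and 19.8% downstream in the first step. The 100 genes with the most sites held 24.7% of the upstream and 15.3% of the downstream members, and 1408 upstream and 1583 downstream genes had a single site.

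The sites themselves were mostly either unmethylated or fully methylated, so that the mean level tracks how many sites are in each state. In the first downstream step, 92.9% of the sites had a mean level under 10% and 2.89% were over 90%. By the eighth step these shares were 64.02% and 24.9%. Upstream, 77.4% of the sites were under 10% and 11.6% were over 90% in the first step, and 46.8% and 35.5% in the eighth. Sites between 10% and 90% made up 4.18% to 11.1% of the downstream steps and 10.9% to 17.7% of the upstream steps. The median site was at 1.72% in the first downstream step and at 2.39% in the first upstream step, and it was over 5% only in the eighth upstream step (15.6%).

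**Figure D2:**
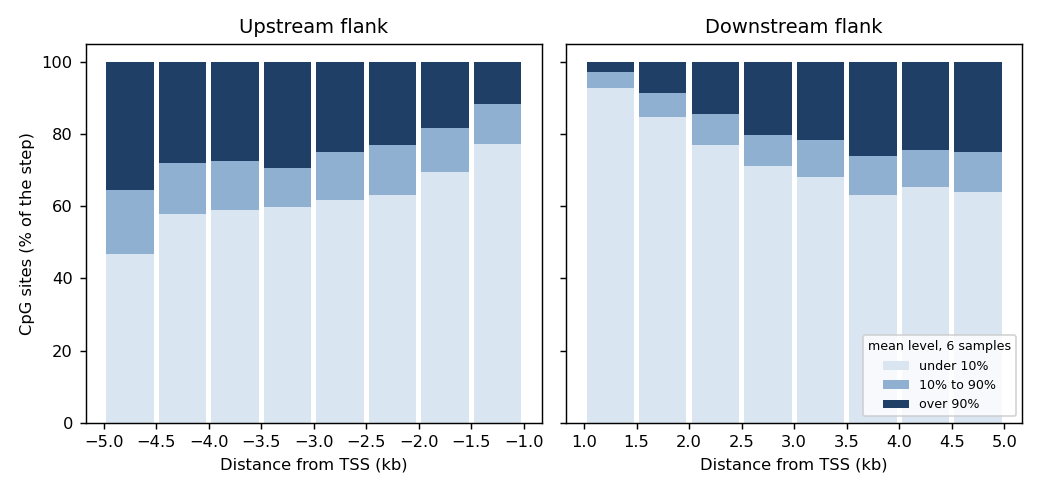
Share of the CpG sites of each 500 bp step (y axis, percent of the step) with a mean level over 6 samples under 10%, from 10% to 90%, and over 90%, for the upstream and the downstream flank against distance from the TSS (x axis, kb). The share over 90% grows away from the TSS on both sides, from 11.6% to 35.5% upstream and from 2.89% to 24.9% downstream.

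Flanks of genes with an unmethylated start were examined gene by gene. Among genes with a level under 10% within 1 kb of the TSS, 1227 of 1313 genes (93.5%, exact 95% binomial confidence interval 92.0% to 94.7%) were still under 10% in the first downstream step, and 316 of 385 genes (82.1%, 77.9% to 85.8%) in the first upstream step. In the second step the shares were 78.5% (75.0% to 81.8%) downstream and 71.6% (65.3% to 77.4%) upstream, and from this step on the intervals of the sides overlapped. The downstream share was 57.4% in the fourth step and 50.7% in the eighth, and the upstream share was 56.9% and 45.9%. In the sixth and seventh steps the order was turned, with 95 of 190 and 103 of 206 genes downstream against 57.04% and 56.5% upstream. A gene entered a step with at least 3 sites there, so that the genes of different steps are not the same, and the intervals cover the counting of genes only.

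The level differed widely with local CpG density. A site was sorted by the number of table sites within 100 bp, itself included. With 1 to 5 such sites the level was 59.7% upstream and 54.6% downstream, with 6 to 10 it was 23.0% and 17.1%, with 11 to 20 it was 4.399% and 2.80%, and with over 20 it was 1.38% and 1.305%. Within a density class the sides were thus much closer than over all sites. The downstream side was lower in 6 of 6 samples in the first 3 classes, and in 4 of 6 samples in the densest class (difference 0.0749 percentage points, exact sign-flip permutation test, two-sided, p = 0.125). The sides differed in their make-up, since the sparsest class held 37.8% of the upstream but 21.4% of the downstream sites, and the classes with over 10 sites held 28.1% and 8.81% of the upstream sites against 39.8% and 15.6% of the downstream sites. When density and distance were both matched, the downstream mean was lower in 5, 5, 7, and 4 of 8 steps, from the sparsest to the densest class. With steps weighted equally, the means were 60.9% upstream and 58.4% downstream, 24.7% and 22.6%, 5.09% and 3.58%, and 1.41% and 1.35%. The widest gap was in the first step of the sparsest class (45.7% and 29.5%). The widest in the reverse order was in the seventh step with 6 to 10 sites (25.2% and 34.5%). The table lists only covered CpGs, so this density is also a measure of where RRBS fragments lie.

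The state of the gene start also went with the level of the flank. Genes with a level under 10% within 1 kb of the TSS had 22.7% upstream and 13.6% downstream, whereas the few with over 90% there had 64.9% (233 sites) and 61.7% (245 sites). Genes with fewer than 3 covered sites within 1 kb had 40.1% upstream and 23.6% downstream.

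The order of the sides differed by the type of gene where sites were weighted equally. In protein-coding genes, the upstream flank was at 32.4% ± 0.339 and the downstream flank at 14.5% ± 0.275 (SD, n = 6), a gap of 18.0 percentage points with the downstream flank lower in 6 of 6 samples. In long non-coding genes, which hold 38.3% of the upstream but 10.98% of the downstream sites, the order was turned, with 26.02% ± 0.333 upstream and 34.1% ± 0.234 downstream, and the downstream flank was lower in 0 of 6 samples. This held for genes listed as antisense (23.8% upstream, 35.7% downstream) and as lincRNA (31.6%, 38.5%), but not for those listed as processed transcript (19.9%, 18.5%). Along the distance steps, the downstream level of protein-coding genes was lower in all samples in 8 of 8 steps, and that of long non-coding genes was higher in all samples in 7 of 8 steps, with the eighth as the exception (45.7% upstream, 32.9% downstream).

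Many long non-coding genes start close to a protein-coding gene. Of their upstream sites, 29.8% lay within 5 kb downstream of a protein-coding TSS, with a level of 12.5%, against 31.8% at the other upstream sites. Of their downstream sites, 11.7% lay in such a place, with a level of 9.15%, against 37.4% at the others. At sites with no second TSS of the table within 5 kb, long non-coding genes still had the higher level downstream (33.3% upstream, 39.0% downstream), by 5.69 percentage points, and protein-coding genes had 34.7% and 14.2%. Other starts of the same gene, and genes absent from the table, were not counted, so that these sites may still lie near another start. The part of neighboring genes in the order of the sides was not tested. With each gene weighted equally, the sides of long non-coding genes did not separate, at 61.48% ± 0.364 upstream (1392 genes) and 61.49% ± 0.262 downstream (1327 genes) with the downstream flank lower in 4 of 6 samples, whereas protein-coding genes kept their order, at 59.5% and 44.3%. The higher downstream level of long non-coding genes was therefore seen with sites weighted equally, where genes with many sites weigh more, and not with genes weighted equally.

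**Figure D3:**
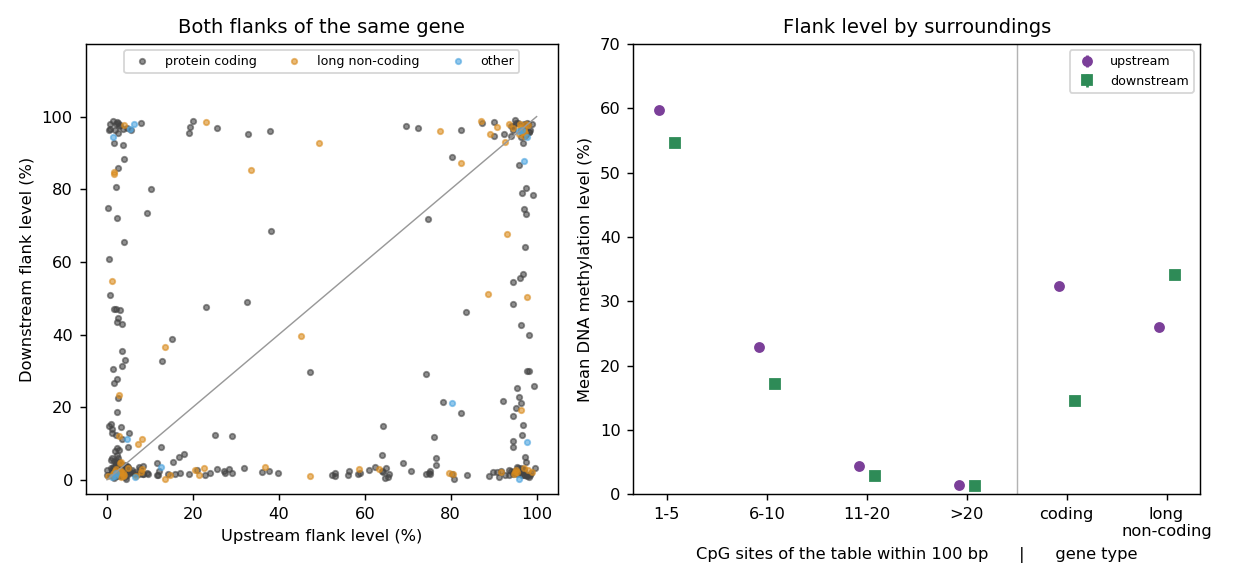
Left, the level of the downstream flank (y axis, percent of reads) against that of the upstream flank (x axis) in genes with at least 3 sites on each side, protein-coding genes in gray and long non-coding genes in orange, and others in blue, with the line of equality. Right, mean level (y axis, percent, over 6 samples, error bars of 1 SD mostly smaller than the symbols) of both flanks by the number of table CpG sites within 100 bp and by gene type. Most genes sit at a corner, 151 of 423 with both flanks under 10%, and, with sites weighted equally, the 2 sides swap order between protein-coding (32.4% and 14.5%) and long non-coding genes (26.02% and 34.1%).

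Where both flanks of the same gene were covered, the downstream flank was again lower on average, with exceptions in either direction. Among 423 genes with at least 3 sites on each side, each weighted equally, the flank levels averaged 38.2% upstream and 28.0% downstream, and the downstream level was lower in 258 and higher in 165 genes. The mean difference was 10.2 percentage points (SD 0.166, n = 6), and the median was only 0.896, since 151 genes had both flanks under 10% and 40 had both over 90%. In 73 genes the upstream flank was over 50% with the downstream flank under 10%, and in 33 genes it was the reverse. In this set, the 73 long non-coding genes had the same order as the 334 protein-coding genes, with means of 47.2% upstream and 36.1% downstream against 36.0% and 25.5%.

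The genes with the widest gap between the flanks, chosen by this gap among genes with at least 5 sites on each side, illustrate both directions. *Plin3*, which encodes a coat protein of lipid droplets, was at 97.7% upstream (7 sites, 1576 to 1659 bp) and 0.900% downstream (5 sites, 2396 to 2482 bp). Its 7 upstream sites had equal coverage within each sample (13 to 27 reads) and may share their reads. *Tektip1*, which encodes a protein of the tektin bundle in cilia and flagella, was at 96.8% and 2.17% (39 downstream sites). *Aqp2*, whose start is printed above, was at 96.4% upstream (chr15:99474294-99474451, mm39, plus strand) and 2.28% downstream (chr15:99481646-99481909), with 17.1% over 3 sites within 1 kb. The upstream values of *Aqp2* were 94.6%, 97.3%, and 95.5% in Space GS cells and 97.3%, 98.9%, and 94.5% in Ground GS cells, and the downstream values were 0.748%, 3.41%, and 2.79% and 2.72%, 1.67%, and 2.33%. The flanks never overlapped, and the groups did. *Zfp648*, a zinc finger gene, had 96.4% and 3.33%, and *Pef1*, which encodes a calcium-binding protein, had 94.5% and 1.60%.

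The widest gaps in the reverse order included *Irf7*, which encodes a transcription factor of the interferon response, with 2.61% upstream and 95.4% downstream. *Krt18* was at 2.85% upstream (chr15:101934045-101934138, mm39, plus strand) and 97.3% downstream (chr15:101937875-101938464, 9 sites), and its start was at 1.84% over 13 sites within 1 kb. The downstream values of *Krt18* were 97.0%, 95.2%, and 97.2% in Space GS cells and 97.9%, 97.9%, and 98.5% in Ground GS cells, with all Space values below all Ground values. *Rbm19* was at 2.19% upstream (chr5:120252682-120252741, plus strand) and 97.9% downstream (chr5:120256758-120256841), with 1.75% over 21 sites within 1 kb. Its upstream values were 2.35%, 5.52%, and 4.62% in Space GS cells and 0.645%, 0%, and 0% in Ground GS cells, all higher in Space. The 5 sites of this flank had equal coverage within each sample (25 to 34 reads) and may share their reads. The *Krt18* downstream and *Rbm19* upstream flanks lay outside 5% to 95% and were not tested. Of all tested gene zones, 9.11% had groups that did not overlap. Both genes were picked by the gap between their flanks. The nearest covered site of the methylated downstream flank lay 1260 bp from the TSS in *Krt18* and 2228 bp in *Rbm19*. *Kmt2b*, a methyltransferase of histone H3 lysine 4, had 2.53% and 98.2%, and *Kcnh3*, a voltage-gated potassium channel, had 0.661% and 96.7%. With at least 5 reads, where more sites enter, the upstream flank was at 25.2% in *Krt18* and 7.05% in *Kcnh3*, and the downstream flank of *Tektip1* was at 4.70%.

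The genes with the most flank sites were all unmethylated. Upstream these were *B130024G19Rik*, a processed transcript (151 sites, 1.59%), *Mir17hg*, the host gene of the miR-17 to miR-92 cluster (136 sites, 1.35%), and the lincRNA *Gm43177* (128 sites, 2.08%). Downstream they were *Arid1a*, a subunit of the BAF chromatin remodeling complex (148 sites, 1.55%), *Bahd1*, a heterochromatin protein (144 sites, 1.66%), and the forkhead gene *Foxq1* (136 sites, 1.65%). In none of these 6 genes did the Space and Ground samples separate. *Arid1a* gave 1.48%, 1.55%, and 0.983% in Space GS cells and 2.57%, 1.26%, and 1.47% in Ground GS cells.

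Gene lists were described by the level of flanks with at least 3 sites, beside medians of 29.7% over all 2083 upstream and 4.95% over all 3675 downstream gene flanks. Of all these gene flanks, 41.3% upstream and 56.4% downstream were under 10%, and 30.8% and 22.4% were over 90%. Hox genes, which pattern the body axis and lie in CpG-rich clusters, had a median of 3.72% over 20 upstream flanks, 16 of them under 10%, and 3.28% over 24 downstream flanks, 19 of them under 10%. *Hoxa9* was at 2.30% upstream (71 sites) and 5.22% downstream (19 sites), *Hoxa3* at 2.14% and 2.82%, and *Hoxb4* at 2.52% and 2.18%. *Hoxd11* had 93 downstream sites at 1.97%, with 2.27%, 1.78%, and 2.76% in Space and 1.71%, 1.72%, and 1.57% in Ground GS cells. The groups did not overlap there, as in 9.11% of all tested gene zones, and this flank was under 5% and not tested. No Hox flank was over 90%, and the highest were *Hoxb6* upstream (88.9%) and *Hoxc5* downstream (84.6%), with 3 sites each and also named after their values were seen.

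Spermatogonial genes had a median of 3.32% over 5 upstream flanks and 6.07% over 15 downstream flanks. Under 10% were 4 of the upstream flanks, beside 41.3% of all upstream gene flanks. Of the downstream flanks 8 were under 10%, close to the 56.4% of all downstream gene flanks. A single flank on each side was over 90%, upstream of *Ret*, the GDNF receptor kinase (97.7%, 4 sites), and downstream of the T-box gene *T* (92.2%, 5 sites), both named after their values were seen. *Nanos3*, an RNA-binding regulator of germ cell survival, was at 3.32% upstream (5 sites) and 1.14% downstream (62 sites), and *Eomes*, a T-box factor, was at 1.68% downstream (29 sites). *Pax7* and *Lhx1*, transcription factors of undifferentiated spermatogonia, were at 12.2% and 18.7% downstream, and *Pax7* was at 5.52% with at least 20 reads. *Lhx1* gave 19.7%, 18.6%, and 16.4% in Space GS cells and 18.1%, 21.5%, and 17.6% in Ground GS cells, and the groups overlapped.

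Housekeeping genes had a median of 1.93% over 5 downstream flanks, among them *Ywhaz* (108 sites, 1.44%), *Ldha* (1.14%), and *Actb* (11.05%), and 93.6% over 2 upstream flanks, of which *Ppia*, the cyclophilin A gene, was at 96.7% with its start at 1.46%. Downstream, 3 of the 5 flanks were under 10% and 1 was over 90%, that of the tubulin gene *Tubb5* at 96.96% over 7 sites, which is named after its value was seen. Over all downstream gene flanks these shares were 56.4% and 22.4%. With at least 20 reads, *Actb* was at 2.29% and *Ldha* at 5.95%. Of the germline genes, 2 had a flank with at least 3 sites, both downstream. *Tdrd1*, a tudor protein of the piRNA pathway, was at 98.5% over 6 sites at 2300 to 2444 bp, whereas its start was at 3.23%, and *Tex101*, a germ cell surface protein, was at 3.05%.

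Space GS cells and Ground GS cells had similar flank levels on both sides. The upstream flank was at 29.8% ± 0.227 in Space and at 29.7% ± 0.458 in Ground (SD, n = 3, p = 0.8 in a two-sided exact permutation test), and the downstream flank at 17.0% ± 0.242 and 16.9% ± 0.355 (p = 0.7 in the same exact test). The differences of 0.0498 and 0.0628 percentage points were smaller than the SD of either group, and 3 samples against 3 cannot give a p below 0.1. The downstream minus upstream difference itself differed between the groups by 0.0130 percentage points (exact permutation test, two-sided, p = 1).

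Over the 16 steps, the Space mean was higher in 14, and the groups overlapped in all of them. The group difference was 0.00258 to 0.163 percentage points with a median of 0.0772, and it was smaller than the larger of both group SDs in 16 of 16 steps, which were 0.0373 to 0.534 with a median of 0.326. The smallest unadjusted p was 0.5 (exact permutation test, two-sided), and adjusted values were 1. The steps are read in the same libraries and are not independent. Ground 1 was the highest sample in 13 steps and Space 1 in the other 3, and Ground 3 was the lowest in 13 steps. The Ground SD was larger than the Space SD in 14 steps.

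**Figure D4:**
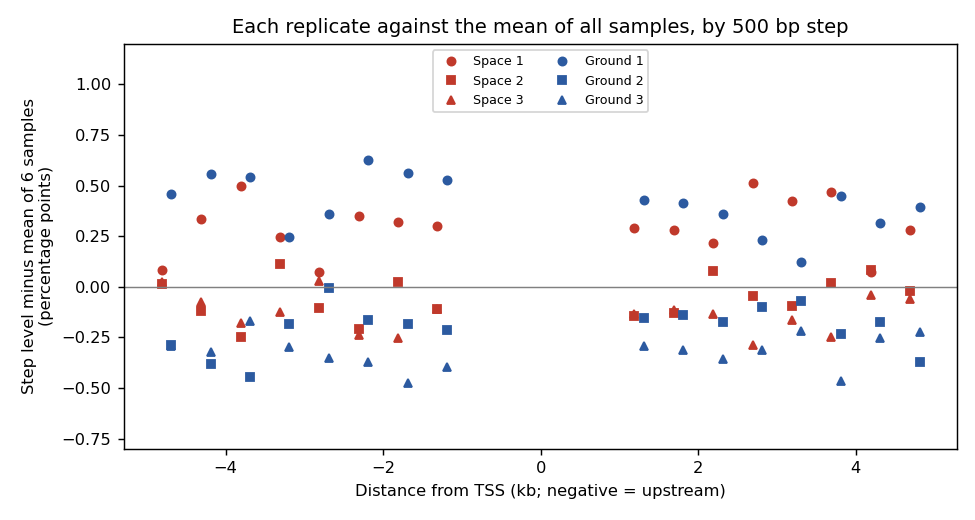
Level of each sample in each 500 bp step minus the mean of the 6 samples (y axis, percentage points) against the distance from the TSS (x axis, kb, upstream negative), with red for Space and blue for Ground and 1 symbol per replicate number. The circles of Space 1 and Ground 1 lie above the other 4 samples in most steps, and the groups overlap in all 16 steps.

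At single sites the replicates differed by more than read sampling alone would give. The chi-square within a group divided by its degrees of freedom, which is 1 under read sampling, was 1.25 to 1.47 in Space and 1.29 to 1.54 in Ground GS cells over the 16 steps. Between pairs of samples it was 1.31 to 1.34 within Space, 1.35 to 1.45 within Ground, and 1.27 to 1.42 between the groups, so that samples of different groups were about as close as samples of 1 group. The median SD of a site at 5% to 95% was 5.99 to 6.66 percentage points over the steps.

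No flank site or gene flank passed the test of Space against Ground. Methylated and total reads were compared in a quasi-binomial model moderated with limma, and p-values were adjusted by Benjamini-Hochberg over the whole table. This test called 0 of 92042 sites of the table with a level of 5% to 95% (0%), and 5.61% of them had an unadjusted p under 0.05. Of the flank sites, 0 of 5424 upstream and 0 of 7837 downstream were called, 314 (5.79%) and 425 (5.42%) had an unadjusted p under 0.05, and the smallest adjusted p-values of this test were 0.509 and 0.575. With the reads of a gene summed per zone, 0 of 13470 gene zones of the table were called (0%) and 4.85% had an unadjusted p under 0.05. For gene flanks these counts were 0 of 834 upstream, with 29 (3.48%) unadjusted, and 0 of 1179 downstream, with 64 (5.43%) unadjusted. The unadjusted shares were thus close to those of the whole table. Tests with edgeR and with limma on log2 ratios also called 0 flank sites and 0 gene flanks.

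Of the listed genes, 7 upstream and 8 downstream Hox flanks, 9 downstream spermatogonial flanks, and 1 upstream and 1 downstream housekeeping flank lay at 5% to 95% and were tested, and 0 were called. A single one of them had an unadjusted p under 0.05, the downstream flank of *Thy1*, a surface protein of undifferentiated spermatogonia and other cells, which is named after its values were seen. It was at 49.2%, 48.4%, and 48.8% in Space and 62.4%, 54.9%, and 61.4% in Ground over 7 sites, with all Space values below all Ground values and an adjusted p of 0.962 in the model with limma. Groups did not overlap in 10.01% of the tested downstream gene flanks. An unadjusted p under 0.05 in this model was seen in 4.85% of all tested gene zones.

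A difference of more than 20 percentage points between group means was seen at 85 flank sites that were higher and 60 that were lower in Space, which is 0.105% and 0.0738% of the members, beside 0.113% and 0.0826% over all 681804 sites. The upstream flank had 36 higher and 33 lower sites, and the downstream flank 49 and 27. Among sites at 5% to 95%, 1.09% of the 13261 flank sites differed by this much, beside 1.45% over the table. The levels of both groups did not overlap at 9.14% of the upstream and 8.92% of the downstream sites at 5% to 95%, beside 9.07% over the table. The sites with over 20 percentage points were shallow, with a median of 12 reads in their lowest sample against 21 for all members, and they fell to 13 higher and 7 lower with a minimum of 20 reads. With this minimum, 5313 in place of 13261 flank sites lay at 5% to 95%.

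The 5 gene flanks of either side with the smallest unadjusted p are given as a description, since they were picked by this contrast. In none did the groups overlap, as in 7.43% of the tested upstream and 10.01% of the tested downstream gene flanks and 9.11% of all gene zones. Upstream, *Dmxl2*, which encodes a regulator of the vacuolar proton pump, was at 25.3%, 35.3%, and 30.6% in Space and 42.6%, 49.0%, and 48.6% in Ground GS cells over 11 sites (chr9:54410353-54413632, mm39, minus strand, 1443 to 4722 bp from the TSS). All Space values lay below all Ground values, with a difference of 16.4 percentage points (30.4% against 46.7%) and an adjusted p of 0.962 by this model with limma. *Actr3b*, an actin-related protein, was at 13.9%, 8.67%, and 10.9% against 1.48%, 4.94%, and 2.38% over 9 sites (chr5:25961533-25961726, plus strand). *Mif*, which encodes a cytokine, was at 46.0% in Space and 56.2% in Ground GS cells over 12 sites, *Wfdc11* at 51.3% and 63.3% over 7 sites, and *Pde4dip*, a centrosome and Golgi protein, at 82.1% and 67.9% over 5 sites.

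Downstream, *Atp4a*, the catalytic subunit of the gastric proton pump, was at 14.6%, 14.6%, and 11.3% in Space and 7.64%, 5.14%, and 6.37% in Ground GS cells over 18 sites (chr7:30415217-30416596, mm39, plus strand, 3583 to 4962 bp from the TSS). The Space values were all higher, and the adjusted p was 0.872 by the same model with limma. With at least 20 reads the mean level over all samples was 16.7% in place of 9.94%. *Mepce*, which caps the 7SK RNA, was at 7.38% and 3.56% over 32 sites. *Tnfaip1* was at 16.8% and 0.617% over 3 sites, where Space GS cells spread from 5.36% to 28.6%. The lincRNA *Gm45708* was at 19.7% and 38.4% over 4 sites, which had equal coverage within each sample (20 to 30 reads) and may share their reads. *Ctdsp1*, a phosphatase of RNA polymerase II, was at 44.5% and 33.0% over 10 sites. The mean level of *Ctdsp1* over all samples was 88.5% in place of 38.7% with at least 20 reads. Space was the higher group in 6 of these 10 flanks and the lower in 4, and adjusted p-values of this test other than that of *Atp4a* were 0.962.

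**Figure D5:**
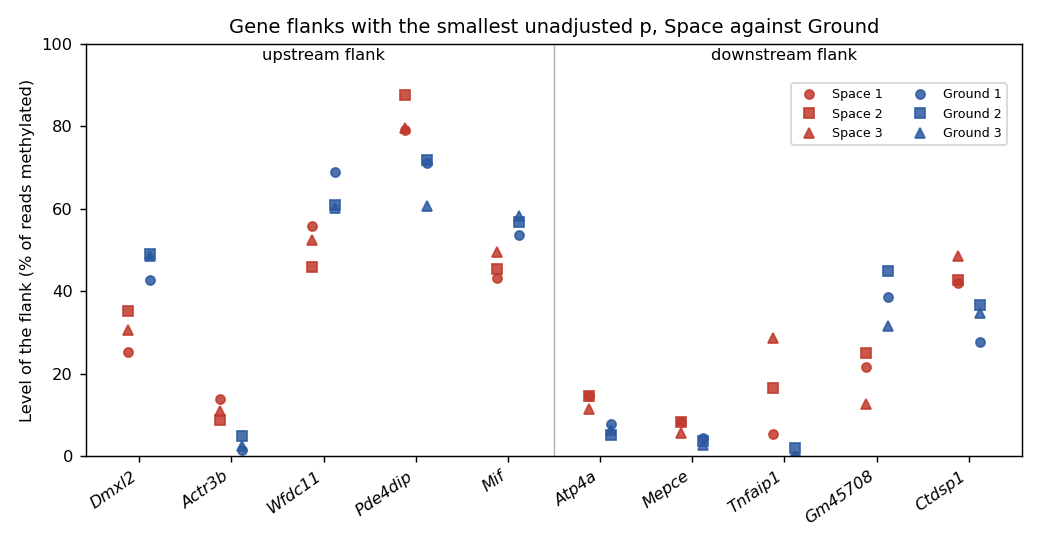
Level of the 5 upstream and 5 downstream gene flanks with the smallest unadjusted p (y axis, percent of reads methylated), with 1 symbol per replicate, red for Space and blue for Ground. The groups do not overlap in any, since the flanks were picked by this contrast, and the replicates of *Tnfaip1* in Space spread from 5.36% to 28.6%.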

How the data were processed

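DNA methylation was measured by RRBS in 3 Space and 3 Ground samples, grouped by their titles. Per the labels, libraries were made with a Zymo-Seq RRBS kit, and the submitters' processing notes name mm39, Trim Galore, Bismark 0.24.2, and methylKit, without parameters. The authors deposited, for each CpG site and sample, a coverage count, the percent methylation at that coverage, and the closest TSS. Removal of duplicated reads and of feeder cells is not given in the sources used here. No genome of this build was at hand, and exons and introns were not used here. Gene types came from GENCODE M21 by identifier, for 95.4% of the genes.

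Multiplying coverage by percent gave the methylated reads, within 0.000266 of a whole read. Site levels are percentages of methylated reads, and means over sites weigh sites equally. A gene flank level sums the reads of its sites, and a read that covers several sites is counted at each. Neighboring sites can be covered by the same reads, so that the sites of a flank are not independent. Sites and gene zones (at least 3 sites, mean level 5% to 95%) were tested on the whole table with a quasi-binomial test whose dispersion was moderated with limma 3.58.1 in R 4.3.3. The script was tried on simulated data, with large changes at sites and gene zones of intermediate level, a narrower range than was tested here. How often the test misses smaller differences was not measured. Alternatives were coverage minimums of 5 and 20 reads, other weights and step widths, edgeR 4.0.16, limma on log2 ratios with 2 reads added, a replicate block, and leaving out each sample. Genes were named by the smallest p, the most sites, the widest gap between flanks, and 4 gene lists, and these rules, the members and the lists were chosen with earlier results of these data known. Figures were drawn with matplotlib 3.10.9. Intervals cover counting only, and reads may be copies of 1 molecule.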

Additional observations from a re-analysis of the deposited data

How the results depend on the processing

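The lower level of the downstream flank kept its direction with other coverage minimums, weights, and chromosomes X and Y added, from 8.95 percentage points with distance steps weighted equally, a weight added after seeing the data, to 14.3 with at least 5 reads (9.78 with at least 20), and p was 0.0625, the smallest p 5 samples allow, with 1 sample left out (difference of -12.8, exact sign-flip permutation test). Alternatives added after seeing the data turned it around, at 8.10 in long non-coding genes and 5.69 in those with no second TSS within 5 kb. With long non-coding genes weighted equally the order was lost, at 0.00809 (exact sign-flip permutation test, p = 0.9375). Local CpG density was not matched in these settings. With density and distance both matched, the downstream mean was not lower in all steps of any density class. The Space minus Ground difference ranged from -0.113 (without Ground 3) to 0.311 (without Ground 1) upstream and from -0.0756 (without Space 1) to 0.264 (without Ground 1) downstream, when 1 sample was left out. It was negative without Space 1 (-0.0805 upstream), Ground 2 (-0.0492 and -0.00282), and Ground 3 (-0.0727 downstream). The group difference of the side difference was -0.175 with pooled reads, -0.0188 with genes weighted equally, -0.0602 with clusters of sites counted once, and -0.0476 to 0.0464 with a sample left out. The number of sites over 20 percentage points rose to 548 higher and 475 lower with at least 5 reads and fell to 13 and 7 with at least 20. It was 123 to 195 and 103 to 160 with a sample left out, where the higher count was 195 and the lower 103 without Ground 1. The causes were not tested.

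The site test called 0 flank sites in 13 settings and the gene test 0 gene flanks in 14. An unadjusted p under 0.05 was seen at 265 of 5313 sites (at least 20 reads) to 6990 of 74074 (no filter on the mean level). For gene flanks it was 38 of 775 (at least 20 reads) to 170 of 4057 (at least 1 site). The shares over the whole table were not taken in these alternative settings. Of the named gene flanks, the level of 11 moved by more than the SD over samples with at least 5 or 20 reads, as different sites then enter. The 10 named differences kept their direction in all settings in which the flank could still be tested. These flanks were picked by this contrast and their groups did not overlap. Leaving out a sample could therefore not turn their direction. No flank site had over 1000 reads, so leaving out such sites changed nothing.

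Samples with the same replicate number were not treated as pairs, since the labels do not name them as pairs. Their sample descriptions carry neighboring numbers, whose meaning is not given. The correlations of their deviations over sites were 0.0173, 0.00642, and 0.0220, with a mean of 0.0152 against -0.00761 for different numbers. Such deviations also hold read sampling, so small correlations cannot decide whether the samples are pairs. As a hint from the data, 4 of 6 samples correlated best with their own number, and mean levels went with the number, since replicate 1 was highest and replicate 3 lowest in both groups and on both flanks. With a replicate block the differences were unchanged at 0.0498, 0.0628, and 0.0130 percentage points (exact sign-flip permutation tests over 3 pairs, p = 0.75, 0.5, and 1, where 0.25 is the smallest possible), and 0 sites and 0 gene flanks were called.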

Other observations

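The downstream flank was lower than the upstream flank on 19 of 19 autosomes. The upstream level varied more between chromosomes, from 18.8% to 48.8%, than the downstream level, from 11.2% to 23.4%. The gap was narrowest on chromosome 17 (26.8% upstream and 23.4% downstream) and widest on chromosome 16 (48.8% and 14.1%), where 545 upstream sites of 130 genes were covered.

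On chromosome X, which was not among the members, the flanks had the same order, with 50.2% ± 0.440 over 145 upstream sites of 39 genes and 11.7% ± 0.245 over 711 downstream sites of 93 genes (SD, n = 6). Space GS cells were higher upstream by 0.491 percentage points (exact permutation test, two-sided, p = 0.3), and both groups were at 11.7% downstream.

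Among the 184 genes whose flanks were over 20 percentage points apart, the downstream flank was lower in 121 and higher in 63.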
